A study of Mus musculus with 8 samples.

Results

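The comparison described here set 2 arrays of B16 cells treated with cytochalasin D for 8 h against 2 arrays of B16 cells treated with SEMA3E for 8 h. These 4 arrays were chosen by their titles from the 8 arrays of the series, and the comparison ran across all genes that passed a filter on dim probes. B16 is a pigmented mouse melanoma line, and all groups were grown in high-glucose medium with serum. The remaining 4 arrays were untreated control cells labelled 0 h (2 arrays) and cells treated with SEMA3E for 2 h (2 arrays). The groups of 2 were biological replicates, per the labels. Doses and vehicles are not given in the sources used here. The 2 treatments were matched in time to each other, whereas no untreated array at 8 h was analysed here.

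SEMA3E is a secreted class 3 semaphorin that binds plexin D1, a receptor whose cytoplasmic part inactivates small GTPases of the Ras family and loosens integrin adhesion. Cytochalasin D caps the growing ends of actin filaments and binds actin monomers. It is known to release the coactivator MRTF from monomeric actin, so that MRTF with the factor SRF can activate cytoskeletal genes, and loss of filaments is known to hold back the coactivators YAP and TAZ.

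Values are the scanner's processed signals on the log2 scale, set so that 0 on each array is the 75th percentile of the probes detected well above background on all 8. A difference of 1 is 2-fold, and a difference is cytochalasin D minus SEMA3E at 8 h with limma's standard error (± SE). The cells carried their label in all 4 arrays: 8 of 8 melanocyte markers were tested, and their median level lay between 3.51 and 3.60 on each of the 4 arrays. The markers of fibroblasts, macrophages, T cells, endothelial cells and keratinocytes that passed the filter had median levels of -4.06 or lower on these arrays. SEMA3E replicate 2 stood apart in its background. Its negative control spots had a median processed signal of 4.38, against 1.58 to 2.17 on the other 7 arrays. All 8 arrays lay on 1 slide with groups in neighbouring positions, so position and group cannot be told apart. The distance between treatments depended on which arrays were paired. Of the genes tested, 7.22% differed over 2-fold between SEMA3E replicate 1 and cytochalasin D replicate 1, and 23.5% between the second replicates of each. Replicates of the same treatment differed over 2-fold in 9.67% (SEMA3E) and 8.76% (cytochalasin D) of genes.

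Of 18074 genes tested, 1 passed an adjusted p under 0.05, which is 0.00553% of them. This gene was Catsperg2, which encodes a subunit of the sperm calcium channel CatSper. Catsperg2 lay at -6.76 and -6.61 on the SEMA3E arrays and at -9.92 and -9.79 on the cytochalasin D arrays, where it was not well above background. It was at least 2.08-fold lower with cytochalasin D, measured against the lowest signal that each array marked as well above background (fitted difference -3.17 ± 0.25, adjusted p = 0.0466, limma with Benjamini-Hochberg adjustment). The bound is smaller than the fitted difference because the dim side has no measured level. In control Catsperg2 lay at -10.47 and -10.29, also not well above background. It was thus well above background with SEMA3E at 8 h and in neither control nor cytochalasin D. With normexp, another background correction, its difference was -0.08, and with normexp and quantile normalization it was -0.33. The 2.08-fold bound therefore depends on the background correction used. The call was lost without any one of the 8 arrays, with adjusted p from 0.0744 to 0.578, and over all alternatives its adjusted p ran from 0.0134 to 0.944.

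At an unadjusted p under 0.05 there were 1989 genes (11.0%), of which 410 (2.27%) were higher with cytochalasin D and 1579 (8.74%) lower. That count was 998 without SEMA3E replicate 2 and 585 without cytochalasin D replicate 2, so it rested on those arrays more than on the others. Over all genes the median difference was -0.13, and 39.7% of differences were above 0. Both cytochalasin D arrays lay above both SEMA3E arrays for 3549 genes (19.6%) and below both for 5922 (32.8%).

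The direction followed the brightness of the probe. With the genes in 10 bins by level, the median difference was -0.74 in the dimmest bin and 0.10 in the brightest. In the dimmest bin the medians were -7.55 and -6.75 on the SEMA3E arrays and -7.83 and -7.95 on the cytochalasin D arrays, so SEMA3E replicate 2, the array with the higher background, lay farthest from the others. The 1579 lower genes had a median level of -6.18, and 56.9% were above background on all 4 arrays. The 410 higher genes had a median level of -1.35, and 88.0% were above background on all 4. There were 497 genes above background on both SEMA3E arrays and on neither cytochalasin D array, and 36 genes with the reverse pattern. The cytochalasin D arrays were also dimmer before scaling. The 75th percentile of their processed signal was 111 and 66.8, against 154 and 141 on the SEMA3E arrays. Spots well above background made up 42.3% and 40.0% with cytochalasin D, against 46.5% and 48.2% with SEMA3E. The parts of background and of signal strength in these differences were not tested.

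The direction also followed the GC content of the probe. The median difference was 0.02 for the 6099 genes whose probes had 30 to 40% GC, -0.36 for the 3313 genes at 50 to 60% and -0.77 for the 107 genes at 70% or more. Beside control, the same 107 genes had a median difference of 0.82 with SEMA3E at 8 h and 0.05 with cytochalasin D. Levels relative to the mean of all 8 arrays correlated with probe GC at 0.17 and 0.31 on the SEMA3E arrays at 8 h. The correlations were -0.01 and -0.17 with cytochalasin D and -0.28 and -0.06 in control. Since arrays of 1 group differed in this trend, the pattern is not assigned to 1 treatment. Removing a GC trend from each array left 0 genes called and 2129 at an unadjusted p under 0.05, of which 63.0% were higher with cytochalasin D against 20.6% before.

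**Figure D1:**
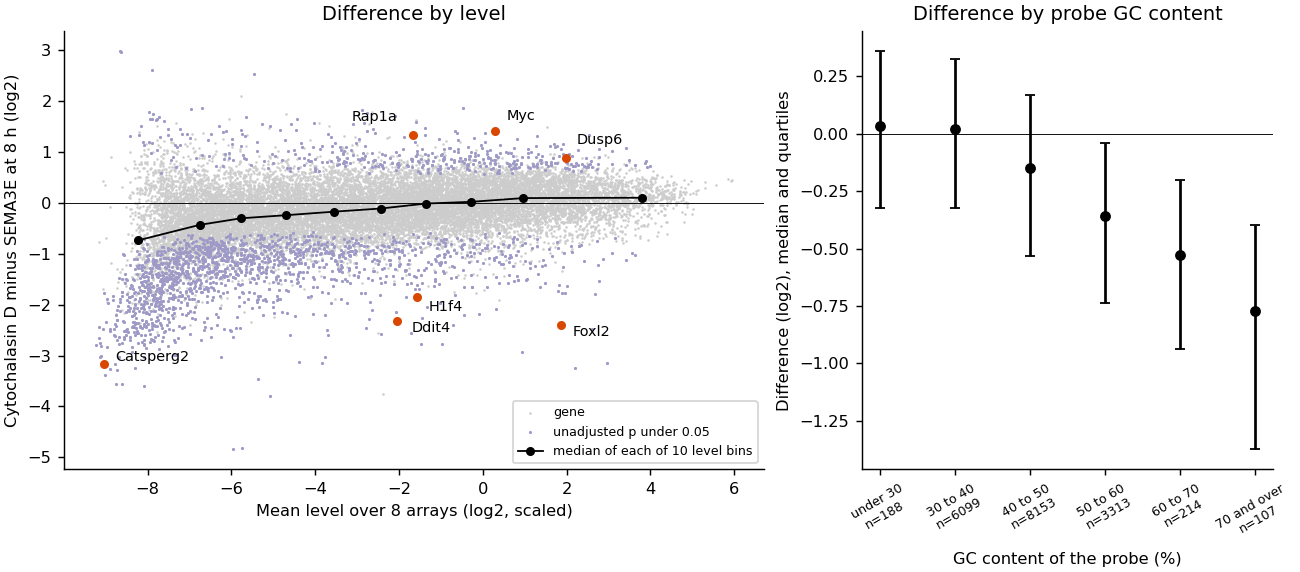
Left, each gene's difference (cytochalasin D minus SEMA3E at 8 h, log2) against its mean level over 8 arrays (log2, scaled), with genes at an unadjusted p under 0.05 in purple, medians of 10 level bins as black points and 7 genes in orange with their names. Right, the median difference with quartiles by probe GC content, which fell from 0.03 under 30% GC to -0.77 at 70% and over.

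The balance of directions was also set by the scaling. Scaling on the 75th percentile over all probes moved the median difference to 0.12, with 59.6% of the genes at an unadjusted p under 0.05 higher with cytochalasin D. Scaling on the median over all probes moved it to 0.85 with 93.8% higher, and quantile normalization gave 0.07 with 59.2% higher. Directions below are therefore best read against the median gene, at -0.13.

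Among genes with a symbol that were above background in at least 1 of the 2 groups, the 12 with the lowest p on the higher side all had an adjusted p of 0.413 and did not pass. The first was Rap1a, a small GTPase of the Ras family that plexins act on. Rap1a lay at -2.53 and -2.37 with SEMA3E and at -1.37 and -0.89 with cytochalasin D (difference 1.33 ± 0.27, unadjusted p = 0.0015). The control arrays lay at -1.06 and -1.10, beside cytochalasin D, and the 2 h SEMA3E arrays at -1.87 and -2.07. Myc, the growth-promoting transcription factor, also had its controls beside cytochalasin D. Its SEMA3E arrays at 8 h lay at -0.11 and -0.27, its cytochalasin D arrays at 1.32 and 1.14 (1.42 ± 0.34) and its controls at 0.79 and 1.39. Unlike Rap1a, its 2 h SEMA3E arrays lay below those at 8 h, at -0.57 and -1.29. Dars, the cytosolic aspartyl-tRNA synthetase, lay at -2.41 and -2.08 with SEMA3E and at -0.99 and -0.83 with cytochalasin D (1.33 ± 0.32).

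The other 9 were a mixed group with differences from 1.02 to 1.59. Afap1l2, of a family of actin filament-associated adaptors, differed by 1.17 ± 0.30, and Septin10, a filament-forming GTPase, by 1.54 ± 0.38. Mthfd2l, a mitochondrial folate enzyme, differed by 1.02 ± 0.25, and Adgrl2, an adhesion receptor, by 1.15 ± 0.29. These are a cytoskeletal pair, a metabolic enzyme and a surface protein, with no list in common. Cyp1a1, a classic target of the aryl hydrocarbon receptor, lay at -6.92 and -6.46 with SEMA3E and at -5.34 and -5.18 with cytochalasin D (1.43 ± 0.38). Zc3h18, which takes part in nuclear RNA turnover, differed by 1.34 ± 0.33 and the zinc finger gene Zfp715 by 1.28 ± 0.29. For the last pair of genes the probes did not match. Wtap, a subunit of the RNA m6A methyltransferase complex, differed by 1.59 ± 0.39 on its brighter probe and by 0.02 on the other. N4bp2l2 differed by 1.32 ± 0.30 on one probe and by -1.67 on the other.

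The 12 on the lower side included Catsperg2 and were mostly genes known from other tissues, near background in these cells. Of these 12, 9 were well above background on neither cytochalasin D array, so that only a bound is given for them, under the processing reported. Among the alternatives, differences relative to the median gene were as small as -0.16 for Ccdc70 and -0.45 for Apobr. The bounds ran from at least 1.79-fold for Ccdc70 to at least 4.67-fold for Apobr, an apolipoprotein B receptor, both with SEMA3E higher. Cfap57, a protein of cilia and flagella, lay at -6.86 and -6.34 with SEMA3E and at -9.93 and -9.79 with cytochalasin D (at least 2.21-fold, adjusted p = 0.114). The homeobox gene Gbx1 (at least 2.88-fold), Selenov, a selenoprotein (at least 3.48-fold), Adad1 (at least 2.45-fold), Psmb9 (at least 1.93-fold) and Ssxb8 (at least 2.18-fold) had the same pattern. The other 3 were well above background on at least 1 array of each group. Rln1, which encodes the hormone relaxin, lay at -4.58 and -4.73 with SEMA3E and at -7.23 and -7.10 with cytochalasin D (-2.51 ± 0.38, adjusted p = 0.25). Sema4g, a transmembrane semaphorin, lay at -5.31 and -5.15 against -7.30 and -8.08 (-2.46 ± 0.42), and Lrguk, a gene of sperm development, differed by -1.69 ± 0.27. The controls of Rln1 lay at -6.96 and -6.86 and those of Sema4g at -7.25 and -6.85, beside cytochalasin D.

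In 12 of the 12 genes on the higher side, the control mean lay nearer to cytochalasin D than to SEMA3E. Over the 410 higher genes that share was 53.7%, near the 54.0% of all genes tested. On the lower side the order is not informative, since 7 of the 12 genes were well above background on neither the control nor the cytochalasin D arrays and entered through their SEMA3E values. The control arrays were labelled 0 h, so time in culture is not matched in these values.

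**Figure D2:**
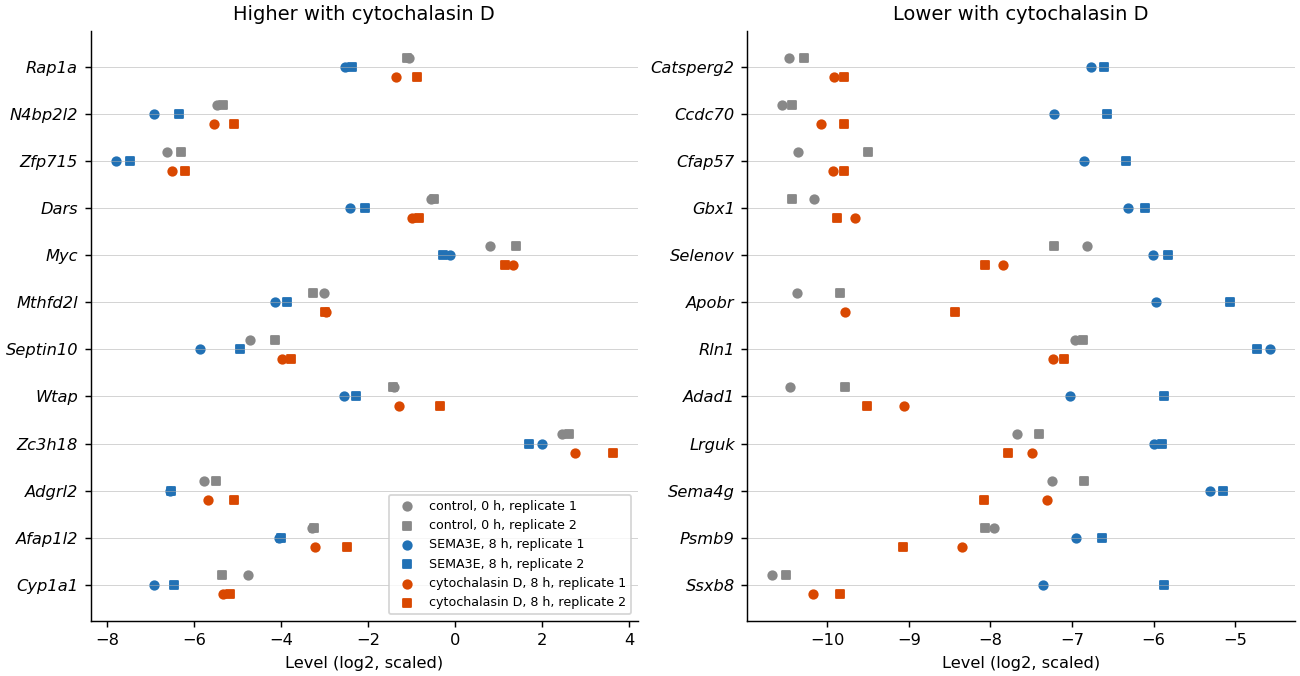
Levels (log2, scaled) of the 12 genes with the lowest p in each direction, on the 2 arrays each of control (grey), SEMA3E at 8 h (blue) and cytochalasin D at 8 h (orange), with circles for replicate 1 and squares for replicate 2. In each row the SEMA3E points stand apart from the cytochalasin D points, which the choice by lowest p favours. In the 12 higher genes the control mean lies nearer to the cytochalasin D mean.

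A few features outside that rule are given because they differed by more than most, and they were chosen after their values were seen. Rn18s, the 18S ribosomal RNA, lay at -3.60 and -3.78 with SEMA3E and at -7.64 and -9.38 with cytochalasin D, where it was not well above background. It was at least 15.2-fold lower there under the processing reported (adjusted p = 0.114, limma). Relative to the median gene, its difference ran from -5.52 to -1.52 over the alternatives. With the arrays scaled on the median over all probes it passed, and its adjusted p ran from 0.00104 to 0.625 over the alternatives. Rs5-8s1, a 5.8S ribosomal RNA gene, lay at -4.26 and -4.19 against -8.11 and -7.27 (-3.46 ± 0.41). Ribosomal RNA has no poly(A) tail, and its signal on such arrays depends on how the sample was primed and labelled. A transcript that the array design names only by its span, chr14:78924115-78938125 (mm9 per the file headers), lay at 5.40 and 4.56 with SEMA3E, 1.88 and 1.77 with cytochalasin D and 1.79 and 2.36 in control (-3.15 ± 0.37). Its probe had 83.3% GC, and with the GC trend removed the difference was -1.94. Foxl2, a forkhead factor best known from the ovary, lay at 4.09 and 2.85 against 0.83 and 1.28 (-2.41 ± 0.50), with a probe of 81.7% GC. In the deposited table the direction of Foxl2 turned, to 2.88 above the median gene. These 2 probes are among the 107 of highest GC content described above.

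The 2 cytoplasmic actin genes differed by less than their standard errors. Actb, cytoplasmic beta-actin, lay at 4.76 and 4.77 with SEMA3E and at 4.88 and 4.99 with cytochalasin D (0.17 ± 0.24, unadjusted p = 0.503). Actg1, cytoplasmic gamma-actin, lay at 3.06 and 3.02 against 3.09 and 3.41 (0.21 ± 0.25), and its other probes ran from -0.32 to 0.10. The controls lay at 4.82 and 4.62 for Actb and 3.16 and 3.07 for Actg1. Of 6 actin genes listed, 4 were tested and 0 were at an unadjusted p under 0.05.

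Cytoskeletal genes known as targets of SRF with MRTF leaned to cytochalasin D by a small amount. Of 35 tested, 24 (68.6%) were higher with cytochalasin D and the median was 0.14. At an unadjusted p under 0.05 there was 1, on the higher side, against 2.27% of all genes. All genes tested had 39.7% higher and a median of -0.13, and the level bin that holds this list's median level had a median of 0.02. The 1 gene was Mrtfb, a coactivator of SRF, at -0.70 and -0.48 with SEMA3E and -0.05 and 0.42 with cytochalasin D (0.77 ± 0.29). Its other probe went the other way, with a difference of -1.44. Tln1, the integrin linker talin, differed by 0.49 ± 0.28, and Vcl, the adhesion protein vinculin, lay at -2.98 and -2.69 against -2.61 and -2.84 (0.11 ± 0.38). Srf lay at -0.85 and -1.21 against -1.23 and -1.17 (-0.17 ± 0.62), with its other probe at 0.14, and Myh9, a non-muscle myosin, differed by 0.32 ± 0.50. Tagln2, an actin-binding protein, lay at -7.44 and -5.96 against -7.31 and -9.90 (-1.90 ± 0.99), where the groups overlapped.

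SRF binds DNA at the CArG box. Within 250 bases before the start of RefSeq genes (GRCm38.p6, both strands), a CArG box stood in 9 of the 33 list genes with a promoter entry (27.3%), in 143 of 10221 genes tested (1.40%) and in 439 of 27025 genes of the table (1.62%). The list was made of known SRF targets, so its high share of boxes is not a result of these data. The 9 genes with a box were Actg1, Cnn2, Fermt2, Fhl2, Filip1l, Lima1, Myl9, Srf and Vcl. Of these, 4 were higher with cytochalasin D and their median was -0.09, whereas the 24 without a box had a median of 0.15. Myl9, a myosin light chain, lay at 0.47 and 0.46 with SEMA3E and 0.69 and 0.80 with cytochalasin D (0.28 ± 0.25). The sequences around the box of 4 of these genes are shown, 5′ to 3′ on the gene's strand with the box in capitals, because they are the elements through which actin state is known to reach these genes.
Actg1 at chr11:120348561-120348600 (minus strand): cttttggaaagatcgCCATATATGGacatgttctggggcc
Vcl at chr14:20929156-20929195 (plus strand): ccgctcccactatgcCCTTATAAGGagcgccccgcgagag
Srf at chr17:46556220-46556259 (minus strand): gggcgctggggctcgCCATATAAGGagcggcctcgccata
Myl9 at chr2:156775288-156775327 (plus strand): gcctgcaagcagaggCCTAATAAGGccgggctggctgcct

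The machinery that builds and takes apart actin filaments had a median of 0.10 over 56 genes, with 32 higher. There was 1 member of the 56 at an unadjusted p under 0.05 in each direction, against 2.27% of all genes higher and 8.74% lower. Twf1, twinfilin, which binds actin monomers and filament ends, lay at 1.73 and 1.92 with SEMA3E and at 2.23 and 2.74 with cytochalasin D (0.66 ± 0.28). Wasf2, the WAVE2 activator of the Arp2/3 complex, lay at -0.09 and -0.43 against -0.89 and -2.28 (-1.33 ± 0.48), and its other probes differed by -1.76 and -0.88. Tubulins, 13 tested, had 10 higher and a median of 0.28, in a level bin with a median of 0.09. The tubulin median rested on cytochalasin D replicate 2: relative to the median gene it was 0.42 as reported, 0.079 without that array and 0.66 without replicate 1. Tubb3, a tubulin typical of neurons, lay at 0.36 and 0.30 against 0.71 and 1.48 (0.77 ± 0.31). The chaperonin CCT, which folds actin and tubulin, and its partner prefoldin had 3 of 13 higher and a median of -0.23, in the same level bin. Its member with the lowest p was the prefoldin subunit Pfdn1, at -2.17 and -2.69 against -3.61 and -5.13 (-1.94 ± 0.66), but its controls lay apart at -1.74 and -3.48.

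YAP and TAZ targets were mixed. Of 24 tested, 13 were higher with cytochalasin D and the median was 0.12, with 2 at an unadjusted p under 0.05 in each direction. Over all genes those shares were 2.27% higher and 8.74% lower. Ccn2, the matricellular protein CTGF, lay at -1.32 and -1.01 with SEMA3E and at -0.61 and -0.35 with cytochalasin D (0.68 ± 0.26). Its controls lay at -0.21 and -0.35 and the 2 h SEMA3E arrays at -1.45 and -1.34, so the SEMA3E arrays at both times lay below the others. Ccn1, which encodes the related protein CYR61, differed by 0.66 ± 0.50. Tead4, a DNA-binding partner of YAP, lay at -4.18 and -3.94 against -3.39 and -2.74 (0.99 ± 0.29). Tgfb2, the growth factor TGF-beta 2, lay at -5.88 and -6.03 against -7.12 and -7.72 (-1.47 ± 0.29) on one probe, while its other probe differed by -0.08. Gadd45b, a stress-response gene, differed by -0.83 ± 0.28.

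The wider TGF-beta pathway had 1 of 23 members at an unadjusted p under 0.05 on the higher side and 4 on the lower. Over all genes those shares were 2.27% and 8.74%. The list median was 0.02. Id1, a target of BMP signalling, lay at -2.16 and -1.45 with SEMA3E, -0.83 and -0.28 with cytochalasin D and -0.32 and -0.80 in control (1.26 ± 0.40). Tgif1, a corepressor of SMAD proteins, lay at 0.12 and -1.13 against -1.99 and -1.75 (-1.37 ± 0.41). The groups did not overlap for either gene, and both were chosen for their low p in this comparison.

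Feedback genes of the ERK pathway are known to be induced by ERK activity. Of 16 tested, 4 were at an unadjusted p under 0.05 with cytochalasin D higher, against 2.27% of all genes, and 1 was at that p on the lower side. The list median was 0.27, and 11 of 16 were higher. Dusp6, the phosphatase that inactivates ERK, lay at 1.50 and 1.51 with SEMA3E, 2.11 and 2.66 with cytochalasin D and 2.25 and 2.12 in control (0.88 ± 0.30). Spred1, an inhibitor of Ras signalling, lay at 0.59 and 0.43 against 1.13 and 1.29 (0.70 ± 0.27), and its other probes differed by 0.28 and 0.54. In the deposited table Spred1 turned, to -0.44 relative to the median gene. The other 2 were Etv4 (0.58 ± 0.24) and Etv5 (0.73 ± 0.30), transcription factors of the ETS family named after their values were seen. The second probe of Etv4 differed by -0.06. Spred2 was on the lower side, at -6.40 and -6.39 with SEMA3E and not well above background on the cytochalasin D arrays (at least 2.54-fold). Relative to the median gene, its difference was as small as -0.04 among the alternatives. Spry2, a further feedback inhibitor, lay at -4.78 and -5.16 against -4.93 and -5.06 (-0.02 ± 0.62). None of these passed the adjusted threshold. Beside control, the list median was -0.28 with SEMA3E at 8 h and 0.06 with cytochalasin D.

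Immediate early genes, which serum and stress induce within minutes to hours, had 10 of 22 higher and a median of -0.04. The 19 members above background on all 4 arrays had 10 higher and a median of 0.16, so the sign rested on dim members. Myc, described above, was the 1 at an unadjusted p under 0.05 on the higher side, and 2 were at that p on the lower side. Over all genes those shares were 2.27% higher and 8.74% lower. Csrnp1, a nuclear factor induced by axin, lay at -0.42 and -1.84 with SEMA3E and -2.25 and -2.67 with cytochalasin D (-1.33 ± 0.52). Egr1, an early growth response factor, was not reproducible within SEMA3E, at -2.73 and -7.96, and lay at -6.14 and -5.79 with cytochalasin D (-0.62 ± 1.51). Fos, a subunit of AP-1, lay at -3.09 and -4.06 against -3.56 and -3.72 (-0.07 ± 0.35).

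**Figure D3:**
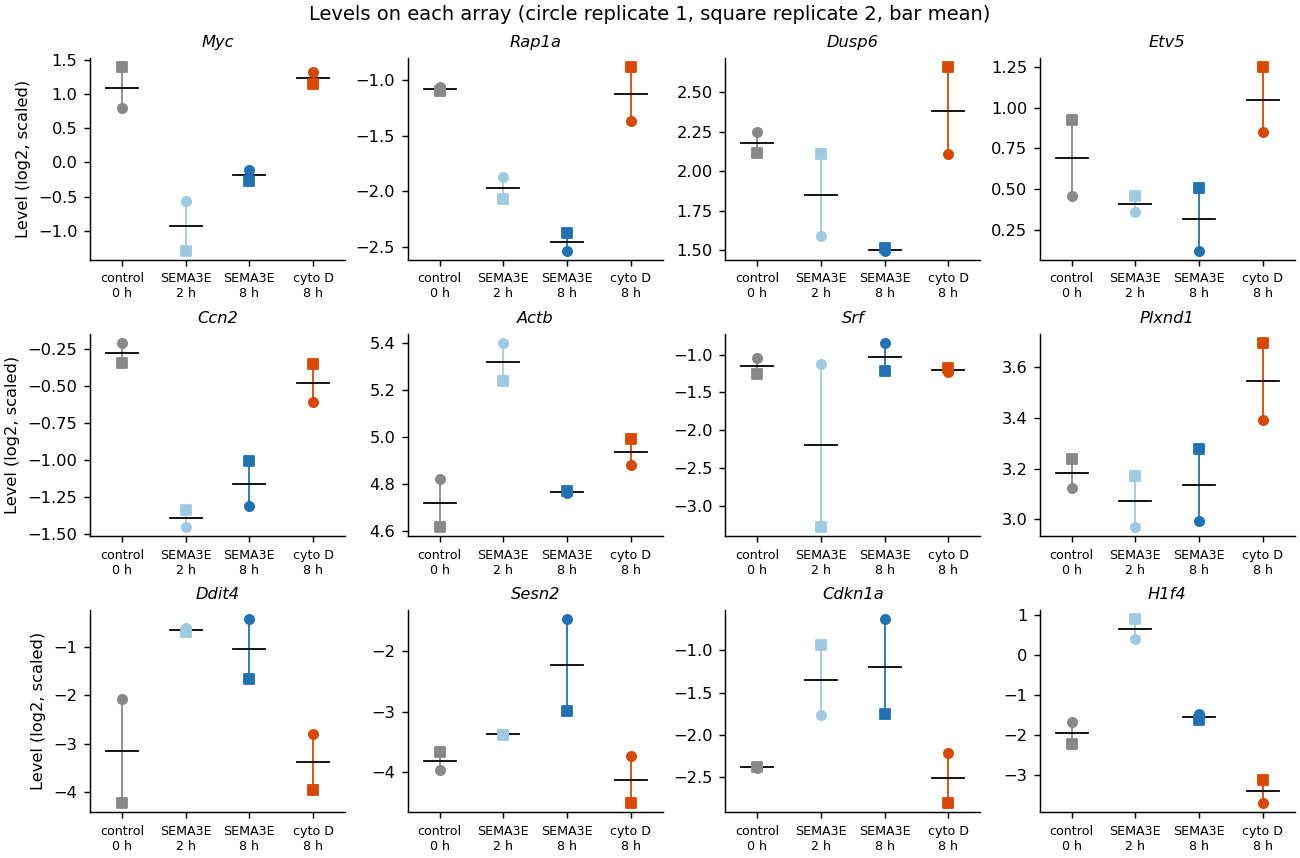
Levels (log2, scaled; each panel has its own axis) of 12 genes on all 8 arrays, by group, with circles for replicate 1, squares for replicate 2 and a bar at the mean of 2. Myc, Rap1a and Dusp6 lie lower on the SEMA3E arrays at 8 h than with cytochalasin D, Ddit4, Sesn2 and Cdkn1a lie higher there, and Actb and Srf lie close at 8 h.

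Receptor genes of SEMA3E were expressed in both groups. Plxnd1, the gene of plexin D1, was at 2.99 and 3.28 with SEMA3E and 3.39 and 3.70 with cytochalasin D (0.41 ± 0.26), and its other probe differed by -0.02. Sema3e itself lay at -7.41 and -8.08 against -7.48 and -7.10 (0.45 ± 0.38). Nrp1, the coreceptor neuropilin 1, did not pass the filter on dim probes. Of 25 receptor and plexin effector genes tested, 12 were higher and the median was -0.15. Besides Rap1a on the higher side, Pip5k1a, a kinase that makes the adhesion lipid PIP2, was at an unadjusted p under 0.05 on the lower. Over all genes those shares were 2.27% and 8.74%. Pip5k1a lay at -0.34 and -0.58 with SEMA3E and -1.85 and -3.01 with cytochalasin D (-1.97 ± 0.53), with its other probes between -1.35 and -1.26, but its controls spread from -1.86 to -0.48. Iqsec1, an activator of the GTPase ARF6, differed by -0.84 ± 0.37 and turned to 0.32 above the median gene in the deposited table. Arf6, which acts in integrin recycling downstream of plexin D1, differed by 0.01 ± 0.52, and Rras, the R-Ras GTPase, by -0.69 ± 0.37. Among 25 semaphorins and plexins, 2 were at an unadjusted p under 0.05 in each direction, against 2.27% of all genes higher and 8.74% lower. Sema4b lay at -4.78 and -4.35 against -3.42 and -2.56 (1.57 ± 0.58), and Sema3c, a secreted semaphorin, differed by 0.96 ± 0.38 on one probe and -0.11 on the other.

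Adhesion and matrix genes had no common direction. Integrins, laminins and collagens had 2 of 23 members at an unadjusted p under 0.05 in each direction and a median of -0.17. Over all genes those shares were 2.27% higher and 8.74% lower. Itga7 and Itga9, integrin alpha chains, differed by -1.06 ± 0.34 and -1.20 ± 0.42, and Lamb1, a laminin chain, by 0.96 ± 0.36. Focal adhesion genes had a median of 0.03 over 13, with 0 at an unadjusted p under 0.05. The kinase gene Ptk2, which encodes FAK, differed by 0.75 ± 0.37 on its brightest probe and by 0.07 on the other, and the scaffold Ilk by -0.85 ± 0.39. Of 14 metalloproteases, furin and inhibitors, 2 were at that p on the lower side, against 8.74% of all genes. Mmp14, a membrane-bound collagenase, lay at -4.58 and -4.21 with SEMA3E and -4.98 and -6.31 with cytochalasin D (-1.25 ± 0.45), and Timp2, an inhibitor of these proteases, lay at 0.54 and 0.64 against -0.01 and -0.49 (-0.84 ± 0.28), with its other probe at -0.30.

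Several stress genes lay higher with SEMA3E than with cytochalasin D, and in some of them SEMA3E replicate 1 was well above replicate 2. Of 18 p53 targets, 5 were at an unadjusted p under 0.05, all lower with cytochalasin D, against 8.74% of all genes, and the median was -0.22. The level bin of this list had a median of -0.11. Cdkn1a, the cell cycle inhibitor p21, lay at -0.64 and -1.75 with SEMA3E, -2.21 and -2.80 with cytochalasin D and -2.39 and -2.38 in control (-1.31 ± 0.46). Sesn2, a sestrin that restrains mTORC1, lay at -1.48 and -2.98 against -3.73 and -4.50 (-1.89 ± 0.50). Trp53inp1, a p53-induced nuclear protein, lay at -1.80 and -2.09 against -3.18 and -3.32 (-1.31 ± 0.35), where the replicates were close. In the deposited table Cdkn1a and Trp53inp1 turned, to 0.57 and 0.34 above the median gene. The remaining members were Perp (-1.03 ± 0.33), a desmosome protein, and Btg2 (-0.79 ± 0.34), an antiproliferative factor.

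The unfolded protein and ATF4 response showed 4 of 27 members at an unadjusted p under 0.05 on the lower side and 1 on the higher. Over all genes those shares were 8.74% and 2.27%. The list median was -0.15. Ddit3, the stress transcription factor CHOP, lay at 0.17 and -1.86 with SEMA3E, -2.49 and -3.50 with cytochalasin D and -2.76 and -2.65 in control (-2.15 ± 0.66). Ddit4, an mTORC1 inhibitor also called REDD1, lay at -0.43 and -1.67 against -2.79 and -3.94 (-2.32 ± 0.75), but its control arrays differed from each other, at -2.07 and -4.21. Hspa5, the endoplasmic reticulum chaperone BiP, did not share this, at 3.11 and 2.96 against 3.08 and 3.30 (0.15 ± 0.25). Heat shock proteins had a median of 0.03 over 14 and BCL2 family genes of -0.06 over 12, with 0 members of either at an unadjusted p under 0.05. Bcl2l1, the survival factor BCL-XL, differed by 0.60 ± 0.33 on one probe and -0.47 on the other.

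Genes of cholesterol and fatty acid synthesis had 8 of 31 members higher with cytochalasin D (25.8%, against 39.7% of all genes) and a median of -0.30, where the level bin of the list had a median of -0.11 and 40.8% higher. At an unadjusted p under 0.05 there were 6, all lower, against 8.74% of all genes. Srebf2, the factor that switches on the cholesterol pathway, lay at -1.93 and -1.81 with SEMA3E, -2.55 and -3.73 with cytochalasin D and -2.09 and -2.45 in control (-1.27 ± 0.40). Nsdhl, a sterol dehydrogenase, differed by -1.47 ± 0.52 and Dhcr7, the last enzyme of the pathway, by -0.87 ± 0.33. For Srebf2, Nsdhl and Dhcr7, cytochalasin D replicate 2 was the lowest of the 4 arrays. The second probes of Srebf2 and Nsdhl differed by -1.58 and -1.46.

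Lysosome and autophagy genes had 7 of 30 higher and a median of -0.24. At an unadjusted p under 0.05 there were 4 members, all lower, against 8.74% of all genes. Map1lc3a, a marker protein of autophagosomes, lay at -3.02 and -2.92 with SEMA3E and -3.74 and -4.22 with cytochalasin D (-1.01 ± 0.35). Gabarap, of the same protein family, lay at 1.47 and 1.42 against 0.99 and 0.61 (-0.65 ± 0.26), and Atp6v0d1, a subunit of the lysosomal proton pump, differed by -1.25 ± 0.53. The level bin of this list's median level had a median of 0.02.

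Oxidative phosphorylation genes had both cytochalasin D arrays below both SEMA3E arrays in 22 of 39 members, against 32.8% of all genes, and a median of -0.16. The level bin of the list had a median of 0.10 and 62.3% higher. The list's median level was 2.156 and 2.119 with SEMA3E and 1.864 and 1.805 with cytochalasin D. The controls lay apart, at 2.15 and 1.697. Only Cox7a2, a subunit of cytochrome c oxidase, was at an unadjusted p under 0.05, on the lower side, against 8.74% of all genes. Cox7a2 lay at 2.07 and 1.94 with SEMA3E and 1.21 and 1.03 with cytochalasin D (-0.89 ± 0.35), but its controls lay at 2.03 and 1.10, as far apart as the treatments. Cytosolic ribosomal protein genes had a median of 0.02 over 36 and 0 members at that p. Aminoacyl-tRNA synthetases had a median of -0.06 over 19, with Dars as the only member at that p. Of 30 glycolysis and hypoxia genes, Slc2a1, the glucose transporter GLUT1, differed by 0.62 ± 0.26 and Ndrg1, a hypoxia-induced gene, by -0.68 ± 0.27.

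Genes of MHC class I antigen presentation had the lowest median of the 33 lists shown. Of 11 tested, 1 was higher with cytochalasin D and the median was -0.80. At an unadjusted p under 0.05 there were 5, all lower, against 8.74% of all genes. Both cytochalasin D arrays lay below both SEMA3E arrays for 8 of the 11, against 32.8% of all genes. That count includes members not above background on every array, such as Tap1 and Psmb9. Separately, 8 members were above background on all 4 arrays, with 0 higher and a median of -0.79. Tap1, a subunit of the peptide transporter, lay at -6.19 and -6.12 with SEMA3E, -7.61 and -9.87 with cytochalasin D and -8.48 and -7.30 in control (-2.59 ± 0.73). Psmb9, an immunoproteasome subunit, lay at -6.95 and -6.63 against -8.35 and -9.08, the latter not well above background. H2-T23, a non-classical class I gene, lay at -3.93 and -4.01 against -4.75 and -5.87 (-1.34 ± 0.42). The other 2 were Tap2 (-1.03 ± 0.41) and Tapbp (-0.78 ± 0.33), and B2m, the shared light chain, lay at 0.66 and 0.49 against 0.28 and -0.74 (-0.81 ± 0.37). These 3 genes were named after their values were seen. Beside control, the list median was 0.67 with SEMA3E at 8 h and -0.28 with cytochalasin D. The level bin of this list's median level had a median of -0.24.

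Interferon response genes, a related group, had 7 of 25 higher and a median of -0.10, which is 0.03 above the median gene. At an unadjusted p under 0.05 there were 3, all lower, against 8.74% of all genes. Oasl1, an antiviral gene, lay at -5.69 and -5.57 with SEMA3E, -6.79 and -7.20 with cytochalasin D and -6.79 and -7.35 in control (-1.37 ± 0.31). Mx2, an antiviral GTPase, differed by -0.98 ± 0.28 and Xaf1, a pro-apoptotic interferon target, by -1.05 ± 0.44.

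Histone genes had 2 of 16 members higher with cytochalasin D (12.5%, against 39.7% of all genes) and a median of -0.34, where the level bin of the list had a median of -0.11. At an unadjusted p under 0.05 there were 3, all lower, against 8.74% of all genes. Of these, 1 was not well above background on both arrays of either 8 h group and is not named. The 12 histone genes above background on all 4 arrays had 1 higher and a median of -0.21. H1f4, a linker histone, lay at -1.47 and -1.62 with SEMA3E and -3.68 and -3.11 with cytochalasin D (-1.85 ± 0.34, adjusted p = 0.362). Its controls lay at -1.67 and -2.21, beside SEMA3E at 8 h, and the 2 h SEMA3E arrays lay at 0.39 and 0.89. H4c4, a core histone H4 gene, lay at -0.61 and -1.24 against -2.95 and -4.02 (-2.56 ± 0.61), with controls at -1.16 and -2.85. H2ac4, a core histone H2A gene, was not among the 3 (unadjusted p = 0.052, limma). It lay at -1.50 and -2.28 against -3.94 and -4.96, but its controls spread from -4.08 to -0.19. Most replication-dependent histone messages lack a poly(A) tail, as ribosomal RNA does, and their copies are similar in sequence, so signal between copies is uncertain. Rn18s, Rs5-8s1, H1f4 and H4c4 were all lower with cytochalasin D, and the part of RNA priming in this was not tested.

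Genes of proliferation were bright, and both of their lists fell in a level bin with a median of 0.09 and 59.2% higher. DNA replication and S phase genes had 22 of 31 higher with cytochalasin D and a median of 0.19, with 0 at an unadjusted p under 0.05. Fen1, a flap endonuclease, lay at 2.40 and 2.61 with SEMA3E and 2.86 and 3.41 with cytochalasin D (0.64 ± 0.28), and Uhrf1, which maintains DNA methylation, differed by 0.91 ± 0.40. Mitosis and cytokinesis genes had 19 of 29 higher, a median of 0.05, below that of the bin, and 0 at that p. Anln, the cleavage furrow protein anillin that binds actin, lay at 1.22 and 1.18 against 1.19 and 1.12 (-0.05 ± 0.28). Cenpe, a kinetochore motor, differed by 0.64 ± 0.33.

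Pigment genes were detected under both treatments, with small differences. Of 36 melanocyte and pigment genes, 23 were higher and the median was 0.12. At an unadjusted p under 0.05 there was 1, on the lower side, against 8.74% of all genes. The level bin of this list had 59.2% higher and a median of 0.09, close to the list's own. The 1 gene was Atp7a, a copper pump that supplies tyrosinase, at 0.41 and 0.27 with SEMA3E and -0.24 and -0.73 with cytochalasin D (-0.83 ± 0.28). Among the genes of melanin synthesis, Tyr, the rate-limiting tyrosinase, differed by 0.19 ± 0.34 (-0.70 to 0.22 on its other probes), Tyrp1 by 0.21 ± 0.27 and Dct by 0.25 ± 0.27. Pmel, the melanosome matrix protein, lay at 3.99 and 4.07 against 3.81 and 3.41 (-0.42 ± 0.27), and turned to 1.46 above the median gene in the deposited table. Mitf, the master factor of the lineage, lay at 3.03 and 3.13 against 3.29 and 3.64 (0.38 ± 0.27) on its brightest probe. Its other probes differed by -1.04 to -0.79, so that no direction holds for Mitf.

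Of the remaining lists, circadian clock genes had a median of -0.23 over 12 and receptor tyrosine kinases of 0.05 over 15. Their level bins had medians of -0.11 and -0.24. Both signs turned among members above background on all 4 arrays, with a median of 0.10 over 10 clock genes and -0.06 over 14 kinases. Each list had 1 member at an unadjusted p under 0.05, lower with cytochalasin D, against 8.74% of all genes. Nr1d1, the clock repressor REV-ERB alpha, lay at -5.79 and -5.72 with SEMA3E and -6.81 and -7.99 with cytochalasin D (-1.65 ± 0.50). Fgfr3, a fibroblast growth factor receptor, differed by -1.08 ± 0.36, and its other probe by -0.92. Mesenchymal factors and cadherins had a median of 0.20 over 6, with 0 at that p, and Zeb2, a factor of mesenchymal transition, differed by 0.52 ± 0.27. Across the 33 lists shown, 0 genes passed the adjusted threshold. There were 2 members that passed in the deposited table, both higher with cytochalasin D there. Aars, the alanyl-tRNA synthetase, differed by 3.49 in that table (adjusted p = 0.0131, limma) and by -0.33 in the scanner signals. Mfsd12, a lysosomal transporter that affects pigment, differed by 3.96 (adjusted p = 0.0299, limma) and by -0.20. They were named after their values were seen.

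**Figure D4:**
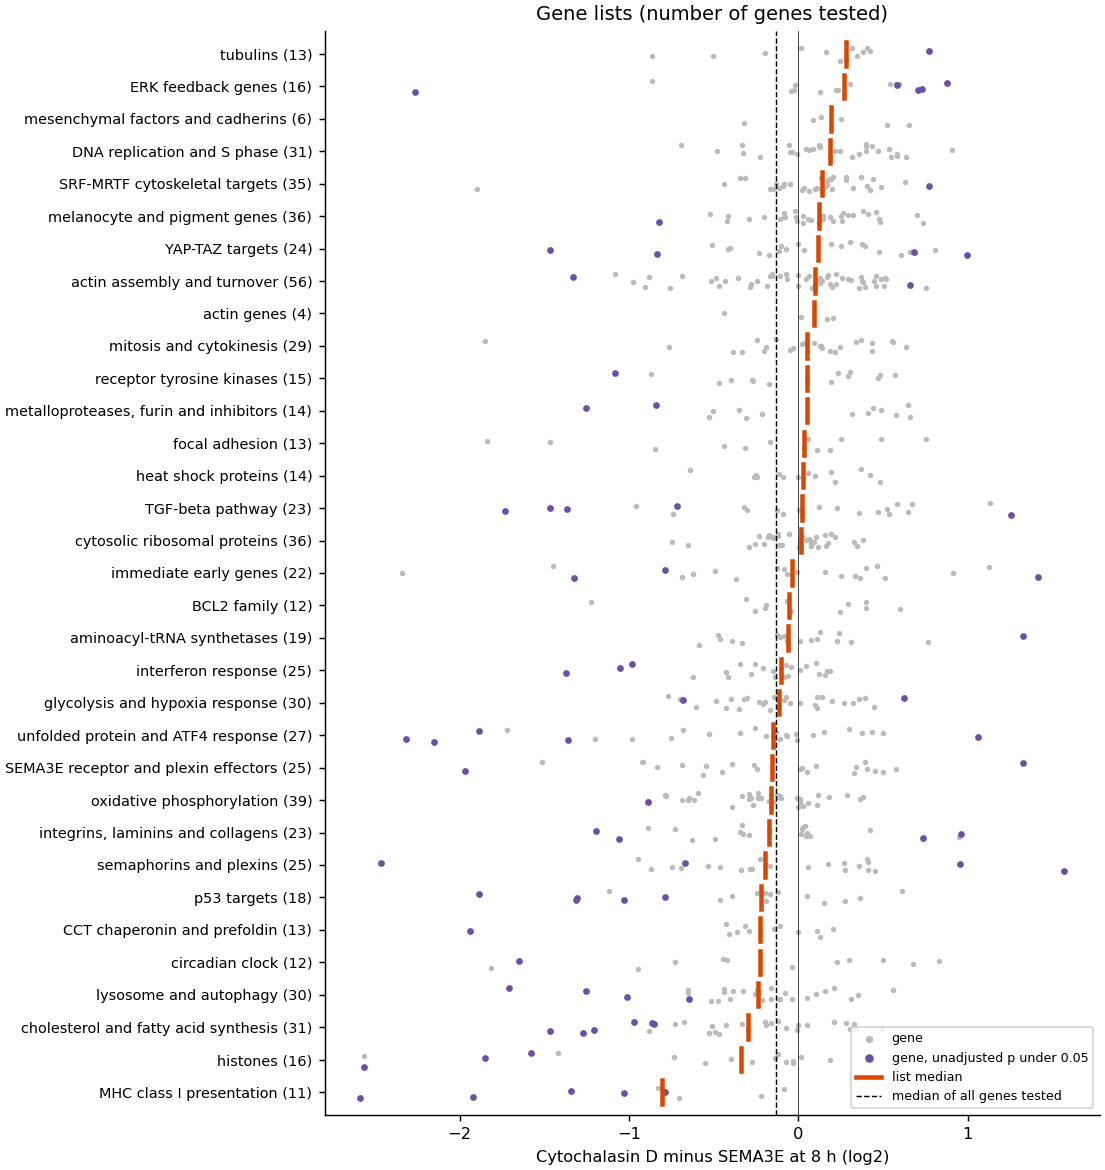
Differences (cytochalasin D minus SEMA3E at 8 h, log2) of the members of 33 gene lists, with members at an unadjusted p under 0.05 in purple, list medians as orange bars and the median of all genes (-0.13) as a dashed line. Tubulins (0.28) and ERK feedback genes (0.27) have the highest medians and MHC class I presentation (-0.80) the lowest, and the tubulin median was 0.079 above the median gene without cytochalasin D replicate 2.

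Read against the median gene, 13 lists kept the sign of their median under all 23 alternatives. On the higher side these were SRF-MRTF targets, actin genes, actin assembly, YAP-TAZ targets, ERK feedback genes, pigment genes, tubulins, S phase genes, mesenchymal factors and metalloproteases. Of these, the pigment, tubulin, S phase and mesenchymal lists fell in the level bin with a median of 0.09. The SRF-MRTF and actin assembly lists fell in a bin at 0.02 and ERK feedback genes in a bin at -0.01. For all of these lists the place above the median gene is in part that of genes of like brightness. The YAP-TAZ and metalloprotease lists fell in a bin at -0.11, near the median gene. So did the median level of the actin list, but its 4 genes ran in level from -7.69 to 4.94. Actb and Actg1 themselves lay in the brightest bin, at 0.10. The signs were not recomputed against level bins. On the lower side, the lists that kept their sign were cholesterol synthesis, MHC class I presentation and histones. The level bin of the MHC class I list, at -0.24, itself lay below the median gene. The p53, CCT and lysosome lists kept the sign in 22 alternatives, mitosis, oxidative phosphorylation and the unfolded protein response in 21 and the interferon list in 15. The ERK feedback median ran from 0.23 to 0.55 above the median gene, the SRF-MRTF median from 0.07 to 0.41 above it, and the MHC class I median relative to it from -1.03 to -0.26. The differences of Myc (1.29 to 1.69), Dars (1.18 to 1.60) and Dusp6 (0.68 to 1.32) above the median gene also kept their direction in 23 of 23 alternatives.

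**Figure D5:**
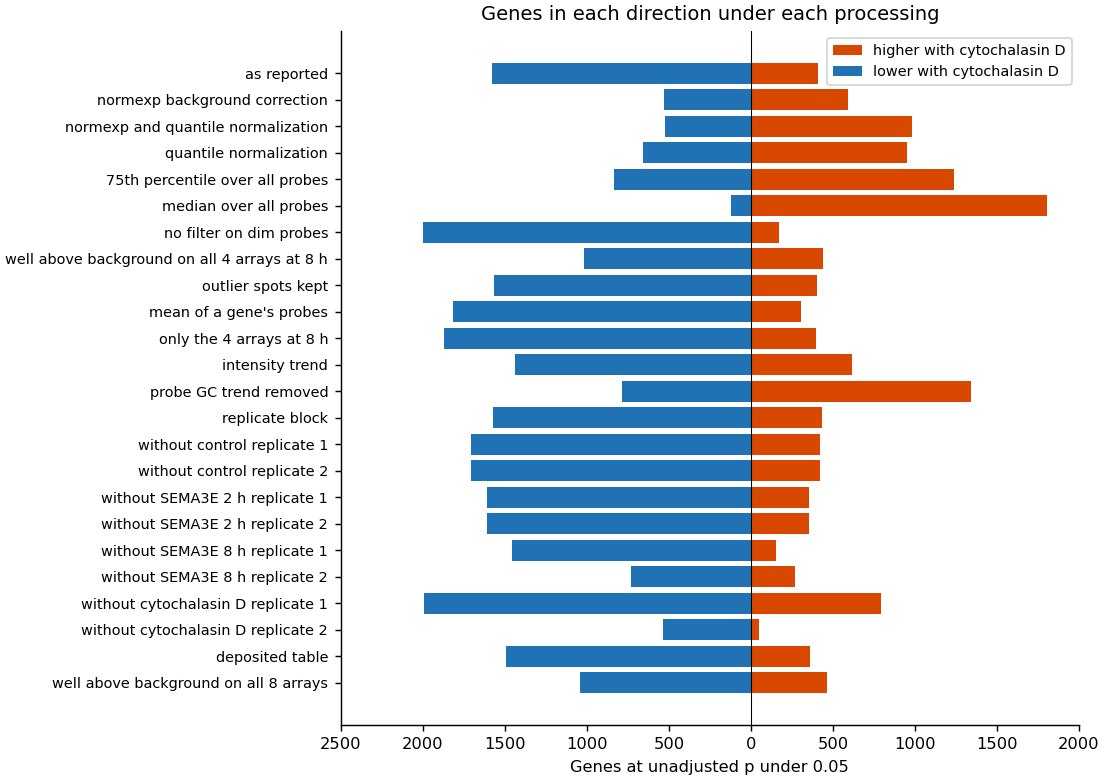
Number of genes at an unadjusted p under 0.05, higher (orange, right) or lower (blue, left) with cytochalasin D, as reported and under 23 alternatives. The side with more genes changes with scaling, background correction and probe GC, and the total runs from 585 without cytochalasin D replicate 2 to 2785 without replicate 1.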

How the data were processed

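RNA of 8 samples was measured on 1-colour Agilent arrays. Per the file headers, the deposited scanner files came from Agilent Feature Extraction 11.5.1.1, and the processed signal is an intensity on a linear scale, background-subtracted and not scaled between arrays. The series' table of values, also deposited as intensity, served as an alternative.

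Control spots and spots marked as outliers were left out and repeated spots were averaged as log2. Probes well above background on both arrays of at least 1 group were kept (24668 probes), and a gene took its brightest probe. Values were scaled as the report states, over 18691 probes. Group means of all 8 arrays were fitted with limma 3.58.1 in R 4.3.3 (4 residual and 3.39 prior degrees of freedom, median SE 0.34), with two-sided tests and Benjamini-Hochberg adjustment at 0.05. The script was tested on simulated data.

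Named genes were those called, the 12 with the lowest p in each direction, the 3 with the lowest p in each of 34 lists and 26 fixed genes. The values of 1 list are not reported here. The comparison and lists were chosen with earlier results of these data known. With 2 arrays per group, their number limits the precision. Motifs were searched in Python 3.11.15.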

Additional observations from a re-analysis of the deposited data

How the results depend on the processing

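Each value was recomputed under 23 alternatives, of which the filter for probes well above background on all 8 arrays was chosen after seeing the data. The number of genes called was 1 as reported, and also 1 with normexp background correction, with an intensity trend and with all probes of a gene averaged. With normexp and with the intensity trend that gene was the transcript on chromosome 14, and with averaged probes it was Catsperg2. The count was 0 with normexp and quantile normalization, quantile normalization, the 75th percentile over all probes, no filter on dim probes, the filters for all 4 arrays or all 8 arrays, outlier spots kept, only the 4 arrays at 8 h and the probe GC trend removed. It was 7 with the median over all probes and 11 in the deposited table. With 0 called, the genes at an unadjusted p under 0.05 in limma numbered 1458 to 2270 among these settings. That count, 1989 as reported, was 1124 with normexp. Leaving out 1 array gave 0 called in all 8 cases, with 585 to 2785 genes at an unadjusted p under 0.05.

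With the replicate block 0 genes were called and 2004 were at an unadjusted p under 0.05. The deviations of same-numbered arrays correlated between -0.147 and 0.140, so they shared no strong deviation. These values cannot show whether samples of the same number were handled together.

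Of 2481 gene values under alternatives, 35 turned sign relative to the median gene, in 19 of 110 genes. With normexp these were Arf6 (-0.11), Fos (-0.075), Anln (-0.14) and Hspa5 (-0.030). With normexp and quantile normalization they were Arf6 (-0.060), Tyrp1 (-0.0055), Anln (-0.10) and Hspa5 (-0.015). With quantile normalization they were Actb (-0.034), Arf6 (-0.10), Egr1 (0.28) and Anln (-0.15). With the GC trend removed they were Fos (-0.14) and Anln (-0.12). Without the filter Srf was at 0.10, and with outlier spots kept Tagln2 was at 0.67. With the mean of probes, Mrtfb (-0.15), Srf (0.17) and Mitf (-0.43) turned. In the deposited table Mrtfb (-0.19), Tagln2 (0.99), Iqsec1 (0.32), Spred1 (-0.44), Trp53inp1 (0.34), Srf (0.13), Tyr (-0.29), Pmel (1.46), Cdkn1a (0.57) and Foxl2 (2.88) turned. Leaving out 1 array, Srf ran from -0.27 to 0.18, Arf6 from -0.065 to 0.32, Egr1 from -3.15 to 2.16, Fos from -0.47 to 0.58 and Spry2 from -0.13 to 0.34. The cause of these changes was not tested. With 2 arrays per group, the median standard error of 0.34 and signal near background limit what can be seen in dim genes.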
